A study of Mus musculus with 10 samples.

Results

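The DnaJ proteins, also called HSP40 or J-proteins, are the cochaperones that bring HSP70 to its clients. Their genes were read here from RNA sequencing of mouse aortae as every gene of the count table whose symbol is Dnaja, Dnajb or Dnajc followed by its number. This gave 45 of the 55453 gene symbols in the table, with 4 genes of subfamily A, 13 of subfamily B and 28 of subfamily C. The aortae came from 10 male C57BL/6 mice, 5 young animals aged 14.5 weeks and 5 old animals aged 92.5 weeks, with 1 library per mouse. The mice carried no allele or treatment that the sources used here name, and young and old animals were killed at the same time. The question of the comparison was which genes differ in level between the young and the aged arterial wall.

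All DnaJ proteins share the J-domain, a short helical region that contacts HSP70 and starts its ATP hydrolysis, so that HSP70 closes on the protein it is to fold, hold or hand on. Members of subfamily A carry a glycine and phenylalanine rich region and a zinc finger behind the J-domain, members of subfamily B lack the zinc finger, and members of subfamily C have the J-domain in any other setting. Several cytosolic members belong to the heat shock response, in which heat shock factors raise chaperone genes when misfolded protein accumulates, whereas members in the endoplasmic reticulum (ER) belong to the unfolded protein response.

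Promoter stretches of some members with the letters of a pair or a run of 3 heat shock units, or of an ER stress element, are shown first. Part of the searched window of Dnajb1, which held no match to these letters, is shown as well. Dnaja1, Dnajb6 and Dnajc3 are shown although edgeR did not call them different between the groups (below). Dnajb5, which it did call, held no match and is not shown. A RefSeq window (GRCm38.p6) of 250 bases before and 50 bases after a transcription start was at hand for 37 of the 45 members. The letters searched were a pair of heat shock units facing each other, GAANNTTC or TTCNNGAA, which cover both strands, 3 such units in a row with 2 bases between neighbours (a run that also holds the pair), and the ER stress element, CCAAT and CCACG with 9 bases between them, on either strand. The matched letters are in capitals in the stretches below, each read 5′ to 3′ on the strand of its gene. The Dnajb4 stretch ends at a start inside the annotated gene, and the stretches of Dnaja1 and Dnajb6 and part of the second of Dnaja4 lie in annotated exons.
Dnajb4, chr3:152193846-152193925, minus strand: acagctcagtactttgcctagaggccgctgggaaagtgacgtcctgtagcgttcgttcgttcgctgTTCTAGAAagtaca
Dnajb1, chr8:83608095-83608174, plus strand, no match: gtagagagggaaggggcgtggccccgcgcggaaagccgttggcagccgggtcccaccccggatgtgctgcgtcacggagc
Dnaja4, chr9:54699458-54699487, plus strand: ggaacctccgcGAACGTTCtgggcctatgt
Dnaja4, chr9:54699496-54699525, plus strand: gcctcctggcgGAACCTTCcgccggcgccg
Dnaja1, chr4:40722333-40722362, plus strand: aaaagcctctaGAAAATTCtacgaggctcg
Dnajb6, chr5:29735843-29735872, plus strand, 3 units: cagctccgaGAATCTTCCGGAAcgctagac
Dnajc10, chr2:80315246-80315325, plus strand: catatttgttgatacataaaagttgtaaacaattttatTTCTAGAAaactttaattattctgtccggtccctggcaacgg
Dnajc3, chr14:118937792-118937871, plus strand, ER stress element: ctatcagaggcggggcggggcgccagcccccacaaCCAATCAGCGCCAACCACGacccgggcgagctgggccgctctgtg

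The pair of units was found in 7 of the 37 members with a window, Dnaja1, Dnaja4, Dnajb4, Dnajb6, Dnajc5g, Dnajc10 and Dnajc27, and in 17.0% of the 27025 gene symbols with a window (15.1% of the 32851 windows). Of the 5 members that differed between old and young aortae (below), Dnaja4, Dnajb4 and Dnajc10 held it, while Dnajb1 and Dnajb5 did not in these windows. The run of 3 units was found in Dnajb6 alone among the members, and in 0.662% of the gene symbols with a window (0.603% of all windows). The ER stress element was found in Dnajc3 alone among the members, and in 0.137% of the gene symbols with a window (0.119% of all windows). These are matches of letters in a short window and show no binding.

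Total counts on genes were between 19640401 and 22886153 per library. Smooth muscle markers were abundant in every library, with Acta2 at 345140 to 428920 normalized counts in young and 289770 to 377030 in old aortae (counts divided by size factors, the scale of all normalized counts here). Old replicate 2 stood apart by its share of mitochondrial counts, 11.0%, and is followed beside the results. In a whole vessel wall, fewer cells of a type and less RNA per cell cannot be told apart.

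After a filter on low counts, 37 of the 45 members were tested, all 4 of subfamily A, 9 of subfamily B and 24 of subfamily C. In old aortae 5 of these genes fell and 0 rose by edgeR's quasi-likelihood test at an adjusted p below 0.05, which is 13.5% of the tested members beside 11.5% of all 14614 tested genes. The count of lower genes, 5 of 37, stands beside 4.99% of all tested genes called lower. At an unadjusted p below 0.05 (edgeR) there were 9 of the 37 members, beside 3902 of all 14614 tested genes. DESeq2 called 6 members and 2325 of all genes. The genes that fell were Dnajb4, Dnajb1, Dnajb5, Dnaja4 and Dnajc10. By subfamily they were 1 of 4 in A, 3 of 9 in B and 1 of 24 in C. The median log2 fold change (old over young) was -0.44 in subfamily A, -0.14 in B and -0.01 in C, with 0.0034 over all tested genes. Every tested member of subfamily B had a negative fold change, from -1.48 to -0.01, and so had 3 of 4 members of subfamily A. Among all 14614 tested genes, 7196 were negative. The sign did not hold in every fit, as Dnajb14 was negative in 13 and Dnajb9 in 18 of 19 alternative fits. Subfamily C was divided, with 14 negative and 10 positive values between -0.22 and 0.49.

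**Figure D1:**
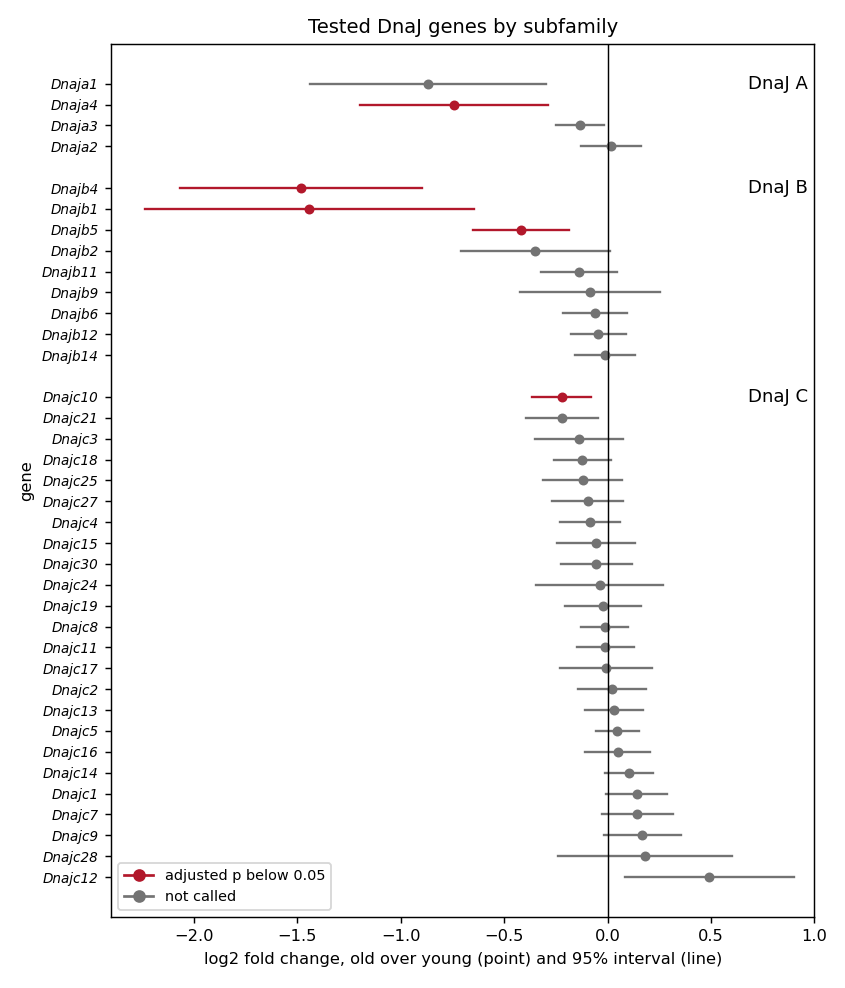
Log2 fold change of old over young aortae for the 37 tested DnaJ genes, 1 gene per line, with the point at the estimate and the line at its 95% interval (edgeR, n = 5 mice per group). The 5 called genes, in red, all lie below 0, and the intervals of Dnajb4 and Dnajb1 reach past -2, while the values of subfamily C gather around 0.

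Sorted by where the protein works, 4 of 10 members of the cytosol fell (40.0%), with a median log2 fold change of -0.38. Of 10 members of the ER 1 fell (10.0%), with a median of -0.07. These counts stand beside 11.5% of all tested genes called and 4.99% called lower. None of the 5 mitochondrial members was called (median -0.06, 1 at an unadjusted p below 0.05). The DnaJ genes together took 0.286% ± 0.0318 (SD, n = 5) of all counts in young and 0.220% ± 0.0119 in old aortae, a range of 0.239% to 0.315% in young and 0.205% to 0.230% in old, so that the groups did not overlap. Subfamily B took 0.125% ± 0.0245 in young and 0.0696% ± 0.00950 in old. Subfamily C took 0.126% ± 0.00298 in young and 0.124% ± 0.00200 in old, with ranges that overlapped. The family sum weighs genes by their counts, and Dnajb4 alone held a mean of 20.9% of it in young and 10.0% in old aortae. The median log2 fold change of the 37 tested members was -0.055.

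Dnajb4 encodes a cytosolic type B protein that is abundant in muscle and heart and works with HSP70 on unfolded proteins. It lies at chr3:152178511-152210302 on the minus strand (GRCm38) and shares no 50-base window with another gene's transcripts. The young aortae, replicates 1 to 5, held 7724.5, 17037, 14377, 16714 and 11042 normalized counts. The old aortae held 5409, 3485, 3105, 5711 and 6100. All 5 old values were below the lowest young value, which was that of young replicate 1. Groups separated in this way, old below young, for 3 of the 37 members (Dnajb4, Dnajb1 and Dnajc10) and for 4.55% of all tested genes. The old-over-young log2 fold change came to -1.48 ± 0.26 (SE; edgeR, adjusted p = 0.00611), with a mean 2.80-fold higher in young than in old. Of all tested members Dnajb4 had the lowest adjusted p, and it was called in each of 19 alternative fits, with an adjusted p of up to 0.0444.

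Dnajb1 encodes the classical HSP40, the main heat-inducible partner of cytosolic HSP70, at chr8:83608193-83612653 on the plus strand. Its normalized counts in young aortae were 2973, 3659, 5733, 3578 and 1975. In old aortae they were 1084, 940.4, 716.7, 1898 and 1926. The groups did not overlap, but the lowest young aorta, replicate 5, lay only just above old replicates 4 and 5. The mean was 2.72-fold higher in young, and the log2 fold change was -1.44 ± 0.35 (SE; edgeR, adjusted p = 0.030). The adjusted p of Dnajb1 was below 0.05 in 12 of 19 alternative fits. By edgeR it was 0.0671 without old replicate 2, the library with the high mitochondrial share. Without old replicate 1 or 3 or young replicate 2 or 4 it was much the same, 0.0599 to 0.0668. Dnajb1 had the widest spread between mice in the family, with a biological coefficient of variation above that of 97.1% of all tested genes.

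Dnajb5, a cytosolic type B protein close in sequence to the former pair, lies at chr4:42949814-42959425 on the plus strand. Young aortae held 3057, 4396, 4041, 4688 and 3712 normalized counts. Old aortae held 3071, 2446, 3022.5, 3113 and 3132.5. Young replicate 1 fell within the old range, and the other young values were above every old value. On the log2 scale Dnajb5 fell by 0.42 ± 0.11 (SE; edgeR, adjusted p = 0.0239), and it was called in 16 of 19 alternative fits.

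Among the other type B proteins of the cytosol, Dnajb2, which hands ubiquitinated clients to the proteasome, held 1582.5, 2635, 1620, 2443 and 2049 normalized counts in young aortae. In old aortae it held 2060, 1642, 1317, 1426 and 1623. The ranges overlapped and the log2 fold change of -0.35 was not called (95% interval -0.71 to 0.01). Dnajb6, a suppressor of protein aggregation, held 459.0, 480.0, 451.7, 451.0 and 496.9 in young and 448.7, 401.0, 496.8, 411.7 and 468.6 in old aortae. Its ranges overlapped too, and the log2 fold change was -0.06 (95% interval -0.22 to 0.09). Its promoter is the one with the run of 3 heat shock units shown above. Windows shared with other genes made up 20.97% of its transcripts.

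In subfamily A, Dnaja1 and Dnaja4 had the larger differences. Dnaja4, a cytosolic type A protein, lies at chr9:54698873-54716315 on the plus strand. Young aortae held 637.9, 1608, 1057, 1350 and 1018.5 normalized counts. Old aortae held 775.5, 656.0, 603.9, 702.8 and 636.8. Young replicate 1 was within the old range and the other young aortae were above it. Dnaja4 fell by 0.74 ± 0.20 on the log2 scale (SE; edgeR, adjusted p = 0.0416), but it was called in only 7 of 19 alternative fits and in 1 of the 10 that left out a mouse, with an adjusted p of up to 0.122. The exons of Wdr61 on the opposite strand overlap 44.1% of the exonic sequence of Dnaja4, and the strand setting of the counting is not given in the sources used here, so that reads of the 2 genes may not be told apart.

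Dnaja1, the abundant cytosolic type A partner of HSP70, lies at chr4:40722150-40737149 on the plus strand. It held 1930, 4660, 3178.5, 4047 and 2843 normalized counts in young aortae. It held 2446, 1459, 1215, 1907 and 2049.5 in old aortae. Young replicate 1 was again within the old range. The mean was 1.83-fold higher in young, with a log2 fold change of -0.87 ± 0.26 (SE) that was not called by edgeR (adjusted p = 0.0568) and was called by DESeq2 (adjusted p = 0.0126). Other genes share 20.6% of its 50-base windows.

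The remaining pair of subfamily A differed little. Dnaja2, the constitutive type A partner of cytosolic HSP70, held 1971, 2156, 2372, 2199 and 2451 normalized counts in young and 2116, 2140, 2465, 2221 and 2269 in old aortae. These values gave a log2 fold change of 0.02 (95% interval -0.13 to 0.16). Dnaja3, the type A protein of the mitochondrial matrix, held 849.5, 810.0, 816.6, 873.0 and 803.3 in young and 764.5, 750.8, 711.1, 733.7 and 806.0 in old aortae. Its log2 fold change was -0.13 (95% interval -0.25 to -0.02), and the adjusted p by edgeR was 0.136.

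**Figure D2:**
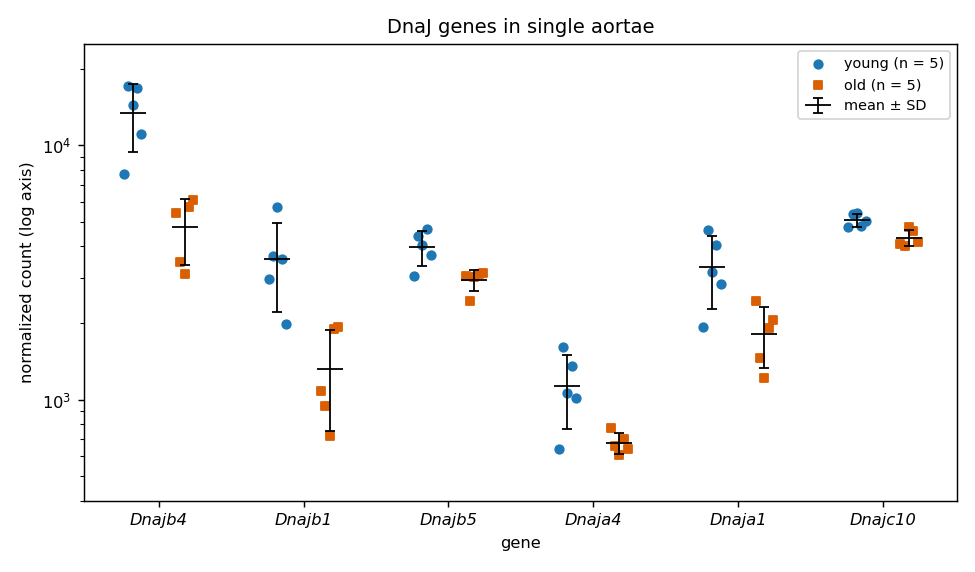
Normalized counts (log axis) of the 5 called DnaJ genes and of Dnaja1 in single aortae, young as blue circles and old as orange squares, with mean ± SD over 5 mice. Old and young values do not overlap for Dnajb4, Dnajb1 and Dnajc10, and the lowest young aorta lies within the old range for Dnajb5, Dnaja4 and Dnaja1.

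The young animals were not alike. Young replicate 1 had the lowest young value in 18 of the 37 tested members and in 4 of the 5 called ones. Without it edgeR called 8 members, with Dnaja1, Dnajc3 and Dnajc21 added to the former 5. Without young replicate 2 or young replicate 4, the 2 young aortae with the highest Dnajb4 counts, Dnajb4 alone was called. Without old replicate 2 there were 2, Dnajb4 and Dnajb5. The calls over all tested genes moved in the same direction in these fits, from 1676 with all mice to 2367 without young replicate 1. They were 1227 without young replicate 2, 1132 without young replicate 4 and 1541 without old replicate 2.

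Ratios of related genes within a library do not depend on how libraries are scaled, and 9 such ratios were compared by exact two-sided permutation tests, in which 5 against 5 mice cannot give a p under 0.0079. The log2 ratio of Dnajb4 to Dnajb5 was 1.34, 1.95, 1.83, 1.83 and 1.57 in young aortae. In old aortae it was 0.82, 0.51, 0.04, 0.88 and 0.96. The groups did not overlap and the mean was 1.07 lower in old (-1.07; exact permutation p = 0.0079, the smallest possible), so that Dnajb4 fell more than its relative in the same libraries. Dnajb1 to Dnajb5 gave -1.05 (old minus young, exact permutation p = 0.024) and Dnaja1 to Dnaja2 gave -0.87 (exact permutation p = 0.016), both with overlapping groups. Adjustment for the 9 ratios was not made.

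Dnajb1 and Dnajb4 had a mean log2 ratio of -1.93 in young and -1.91 in old aortae, a difference of 0.01 (exact permutation p = 0.97), with a young range of -2.48 to -1.33. The ratio of Dnaja1 to Dnaja4 lay between 1.48 and 1.6 in all 5 young aortae, although Dnaja1 itself ranged from 1930 to 4660 normalized counts there. In old aortae the same ratio ranged more widely, from 1.01 to 1.69, and the difference in mean was -0.17 (exact permutation p = 0.33). The other 4 ratios, Dnajb6 to Dnajb2, Dnajb12 to Dnajb14, Dnajb9 to Dnajb11 and Dnajc15 to Dnajc19, differed by -0.03 to 0.27 with an exact permutation p of 0.18 to 0.79.

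**Figure D3:**
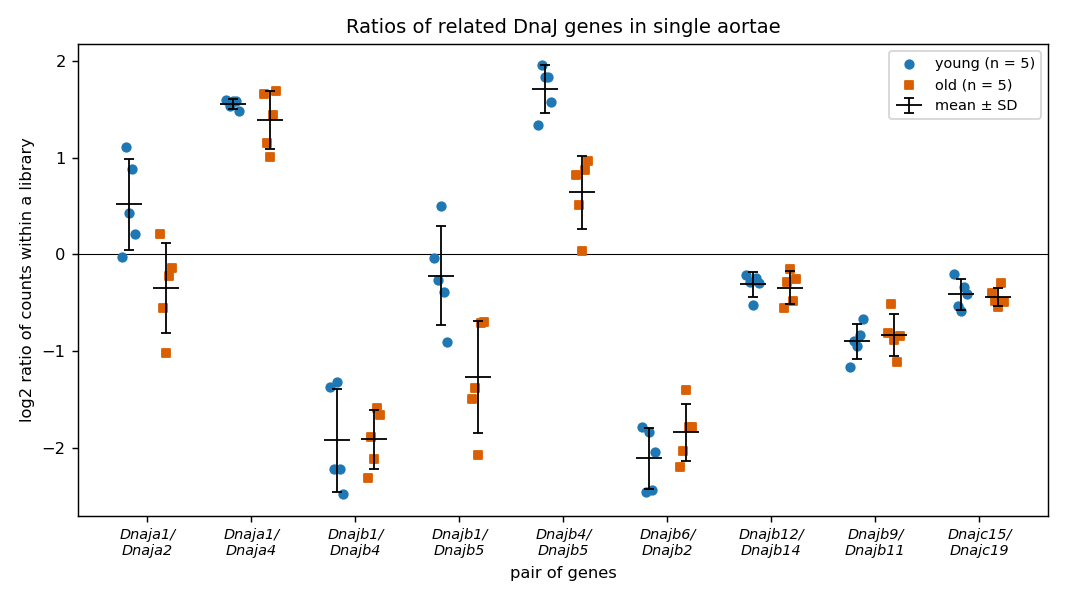
Log2 ratio of the counts of 2 related DnaJ genes within each library for 9 pairs, young as blue circles and old as orange squares, with mean ± SD over 5 mice. The ratio of Dnajb4 to Dnajb5 is above 1.3 in every young and below 1 in every old aorta, and the ratio of Dnaja1 to Dnaja4 is confined to 1.48 to 1.6 in the young.

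The ER holds a group of its own. Dnajc10 (ERdj5), a disulfide reductase that helps clear misfolded proteins from the ER, lies at chr2:80315466-80354043 on the plus strand. Young aortae held 4781, 5379.5, 5391, 4799 and 5035 normalized counts. Old aortae held 4105, 4021, 4752, 4591 and 4166. The groups did not overlap, by a narrow margin between old replicate 3 and young replicate 1. Dnajc10 fell by 0.22 ± 0.07 on the log2 scale (SE; edgeR, adjusted p = 0.0434), and it was called in 8 of 19 alternative fits.

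Dnajc3 (p58IPK), an ER cochaperone of the HSP70 BiP and an inhibitor of the kinase PERK, held 3602, 5240, 4543.5, 5187.5 and 5474 normalized counts in young and 4570, 4340, 4348, 4491 and 3958 in old aortae. The ranges overlapped because young replicate 1 was lower than every old aorta. Its log2 fold change of -0.14 was not called (95% interval -0.35 to 0.07; edgeR, adjusted p = 0.403). Without young replicate 1 it was -0.23 (adjusted p = 0.034 by edgeR).

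The type B members of the ER overlapped between the groups. Dnajb9 (ERdj4), which is induced with ER stress, held 561.2, 841.2, 682.0, 817.9 and 1035 normalized counts in young and 776.5, 895.7, 771.7, 631.5 and 616.4 in old aortae. Dnajb11 (ERdj3), which binds unfolded proteins with BiP, held 1262.5, 1563, 1318, 1457 and 1641 in young and 1365, 1280, 1427, 1364 and 1109 in old aortae. Neither was called, with log2 fold changes of -0.08 (95% interval -0.42 to 0.26) and -0.14 (95% interval -0.32 to 0.05). Dnajb12 and Dnajb14, a pair of membrane proteins of the ER, were more even. Dnajb12 held 766.7, 788.9, 738.8, 841.1 and 842.2 in young and 700.5, 767.1, 826.7, 755.8 and 782.6 in old aortae. Dnajb14 held 887.4, 960.0, 1067, 994.6 and 1035 in young and 1032, 932.8, 916.2, 1059 and 935.3 in old aortae. Their log2 fold changes were -0.05 and -0.01. Of the other ER members of subfamily C, Dnajc1, Dnajc14 and Dnajc16 had values of 0.14, 0.10 and 0.05, and Dnajc18 had -0.12, none of them called.

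The mitochondrial members lay close to 0. Dnajc15 and Dnajc19, which act at the inner membrane motor that pulls proteins into the matrix, had log2 fold changes of -0.06 and -0.02, Dnajc11 had -0.01 and Dnajc30 had -0.06. The unadjusted p of these 4 was between 0.50 and 0.87 (edgeR). With Dnaja3, all 5 members lay between -0.13 and -0.01.

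The rest of subfamily C serves narrower tasks. Dnajc8, a protein of the spliceosome, held 2026, 2118, 2152, 1925 and 2027 normalized counts in young and 2029, 1895, 2157, 2013 and 1998 in old aortae. Dnajc5, the cysteine string protein of secretory vesicles, held 2106, 2298, 2136, 2181 and 2244 in young and 2238.5, 2274, 2290, 2313 and 2153.5 in old aortae. Both were even over the mice, and the 95% intervals of their log2 fold changes were -0.13 to 0.10 and -0.06 to 0.15. Dnajc4 held 544.9, 513.2, 464.6, 501.2 and 491.8 in young and 447.7, 460.9, 478.1, 451.2 and 523.1 in old aortae. The interval of Dnajc4 was -0.23 to 0.06.

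Dnajc12, a cochaperone of the aromatic amino acid hydroxylases, had the highest fold change of the family. It held 51.1, 44.3, 61.8, 42.5 and 37.9 normalized counts in young and 56.0, 54.5, 72.7, 61.7 and 87.5 in old aortae. The ranges overlapped and all 5 old values were above the young mean. The log2 fold change of 0.49 ± 0.19 (SE) was not called by edgeR (adjusted p = 0.114) or in any of 19 alternative fits. Dnajc21, a ribosome biogenesis factor, had -0.22 ± 0.08 (SE; edgeR, adjusted p = 0.101). The remaining tested members, Dnajc2, Dnajc7, Dnajc9, Dnajc13, Dnajc17, Dnajc24, Dnajc25, Dnajc27 and Dnajc28, had log2 fold changes from -0.12 (Dnajc25) to 0.18 (Dnajc28), and none was called.

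The 8 members that were not tested are Dnajb3, Dnajb7, Dnajb8, Dnajb13, Dnajc5b, Dnajc5g, Dnajc6 and Dnajc22. None exceeded 12.3 normalized counts in any aorta, and Dnajc5g had a count of 0 in all 10 libraries. Among them, Dnajb3, Dnajb7, Dnajb8, Dnajc5b and Dnajc5g are known from the testis, Dnajb13 from the axoneme of sperm and cilia, and Dnajc6 (auxilin) from clathrin uncoating in neurons. Dnajc6 was counted in every aorta, at 2.04 to 7.73 normalized counts in young and 5.59 to 9.81 in old.

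**Figure D4:**
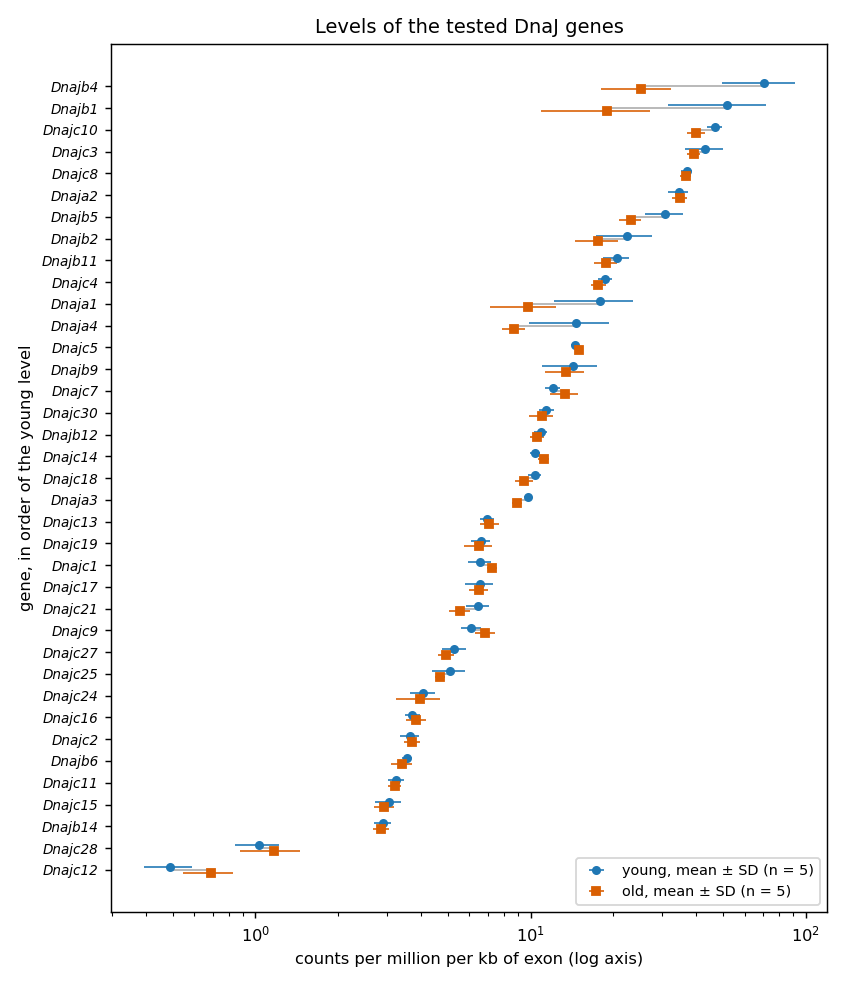
Level of the 37 tested DnaJ genes in CPM per kb of exon (log axis), ordered by the young mean, with young as blue circles, old as orange squares and lines for the SD over 5 mice. Dnajb4 and Dnajb1 are at the top in young aortae and move furthest to the left in old ones, to ranks 5 and 7, and Dnajc10 is at the top in old aortae.

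Per kilobase of exon, Dnajb4 had the highest level of the family in young aortae, 70.4 ± 20.96 CPM per kb (counts scaled to library size and exon length; SD, n = 5). Dnajb1 followed with 51.6 ± 19.995, Dnajc10 with 46.8 ± 2.83 and Dnajc3 with 43.2 ± 6.77, and the intervals of mean ± SD of these neighbours overlapped. In old aortae the order began with Dnajc10 at 40.1 ± 3.02, Dnajc3 at 39.2 ± 2.19, Dnajc8 at 36.6 ± 1.69 and Dnaja2 at 34.96 ± 2.17, and again the intervals of neighbours overlapped. Dnajb4 came next, at rank 5, with 25.2 ± 7.18, and Dnajb1 stood at rank 7 with 19.0 ± 8.09. Dnajb4 alone took 20.9% ± 3.95 of all counts on DnaJ genes in young and 10.0% ± 2.44 in old aortae. By the length of the longest transcript in place of all exons Dnajb4 was again at the top in young aortae, with Dnajc10 ahead of Dnajb1. The lowest tested level was that of Dnajc12, 0.490 ± 0.0971 in young.

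HSP70 itself, the partner of these proteins, was read from a list of 15 genes, of which 4 fell, 0 rose and all were tested. The called share was 26.7%, beside 11.5% of all tested genes called and 4.99% called lower. They were Hspa1a and Hspa1b, the heat-inducible pair, Hspa1l, their close relative, and Hspa4, an HSP110 type exchange factor of the family. Hspa1a held 6109, 19610, 11186, 11395 and 3245 normalized counts in young and 2537, 748.6, 413.8, 1452 and 1504 in old aortae, without overlap. This was a log2 fold change of -2.95 ± 0.60 (SE; edgeR, adjusted p = 0.0134). Hspa1b had -2.99 ± 0.62 (SE; edgeR, adjusted p = 0.0145), but the 2 genes are near-identical copies and the split of reads between them is uncertain. Hspa1l had -1.47 and Hspa4 had -0.37. Over the 15 genes the median log2 fold change was -0.18, with 13 negative and 2 positive values. An unadjusted p below 0.05 (edgeR) was found for 9 of them, beside 3902 of all 14614 tested genes.

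The partners that every cell keeps had fold changes smaller in size than those of Hspa1a, Hspa1b and Hspa1l. That of Hspa8 was larger in size than that of Hspa4. Hspa8, the constitutive cytosolic HSP70, held 22519 to 49026 normalized counts in young and 20392 to 31722 in old aortae, with a median of 42164 in young and 23376 in old (log2 fold change -0.66 ± 0.20, SE; edgeR, adjusted p = 0.0588). Hspa5 (BiP), the HSP70 of the ER, was at -0.04 (95% interval -0.42 to 0.35). Hspa9, the HSP70 of mitochondria, was at -0.15 (95% interval -0.28 to -0.02; edgeR, adjusted p = 0.125). Of these 3 genes, none of them called, the cytosolic one had the lowest fold change. The cytosol also had the lowest median of DnaJ members among the 3 compartments. The others ran in opposite order, with Hspa9 below Hspa5 but the DnaJ median of the ER (-0.065) below that of mitochondria (-0.055). These orders were not tested.

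Of 10 nucleotide exchange factors, which let HSP70 release its client, 2 fell. Bag3, which is induced with stress and steers clients to autophagy, held 2606 to 5787 normalized counts in young and 1740 to 2462 in old aortae, without overlap, and fell by 0.89 on the log2 scale. Bag2, an inhibitor of client ubiquitination, held 394.6 to 661.1 in young and 385.8 to 446.7 in old, and fell by 0.43. Of 13 genes of the HSP90 system, 2 fell (15.4%), with 8 at an unadjusted p below 0.05 (edgeR). Their median log2 fold change was -0.35, with 9 negative and 4 positive values. Hsp90aa1, the inducible HSP90, held 6411 to 15483 normalized counts in young and 5906 to 8149.5 in old aortae (log2 fold change -0.76), and Ptges3, the cochaperone p23, had -0.43. Among 6 tested small heat shock protein genes 3 fell, Hspb1, Hspb6 and Hspb8. Hsf1, the main heat shock factor, was at -0.11 (95% interval -0.33 to 0.11). Hsf4, at 24.9 to 56.2 normalized counts in young and 56.4 to 93.7 in old aortae, rose by 0.85 (log2; edgeR, adjusted p = 0.0317). None of 19 ER folding genes was called (edgeR, 1 at an unadjusted p below 0.05, median -0.06). Of 13 mitochondrial import and folding genes 2 fell (15.4%), Hspd1 (HSP60) with -0.56 and its partner Hspe1 with -0.44. Beside the counts of all these lists stand 11.5% of all 14614 tested genes called and 4.99% called lower. An unadjusted p below 0.05 (edgeR) was found for 3902 of the 14614.

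**Figure D5:**
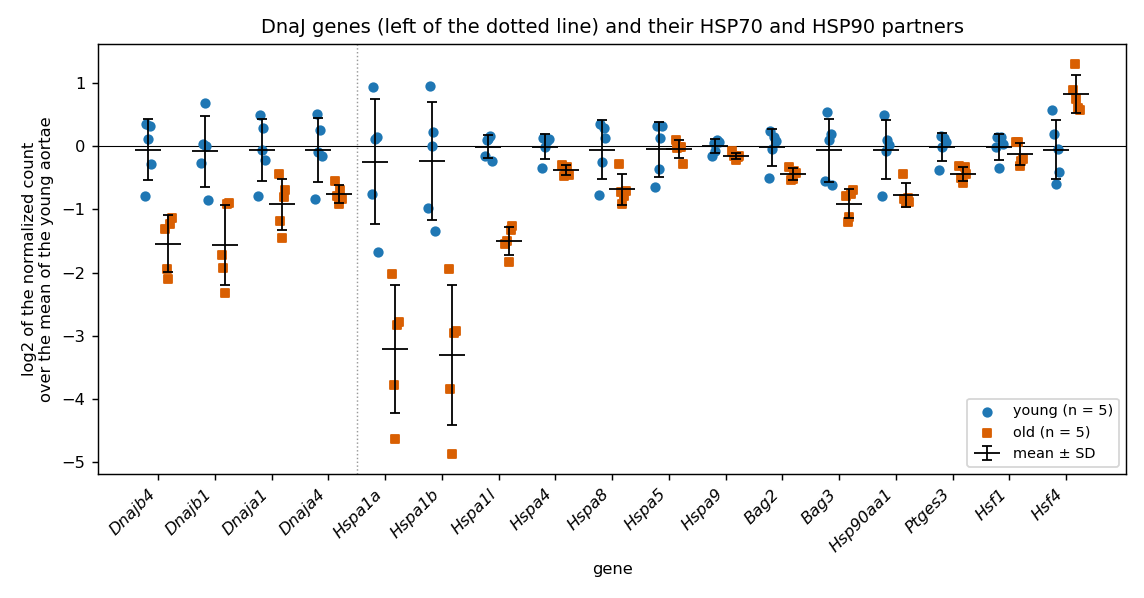
Normalized counts of 4 DnaJ genes and 13 partner genes in single aortae, as log2 over the mean of the young aortae, young as blue circles and old as orange squares, with mean ± SD of the log2 values over 5 mice. Old values of Hspa1a and Hspa1b lie furthest down, Hspa5 and Hspa9 lie near 0, and Hsf4 lies above 0 in every old aorta.

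Genes of other lists moved between the same groups, and their part in the DnaJ results was not tested. Their counts stand beside 11.5% of all tested genes called and 4.99% called lower. At an unadjusted p below 0.05 (edgeR) there were 3902 of all 14614 tested genes. Of 14 immediate early genes, which respond within minutes to handling and stretch, Fosb and Atf3 fell (log2 fold change -1.16 and -2.28) and Junb rose (0.77). The summed level of the 14 was 0.0979% to 0.221% of counts in young and 0.0852% to 0.160% in old aortae. Of 5 macrophage markers 3 rose, with a sum of 0.0162% to 0.0231% in young and 0.0232% to 0.0442% in old. None of 5 endothelial markers was called (edgeR, 4 at an unadjusted p below 0.05), with a sum of 0.0835% to 0.147% in young and 0.0442% to 0.102% in old. None of 5 adipocyte markers was called (edgeR, 4 at an unadjusted p below 0.05), with a sum of 0.0108% to 0.0414% in young and 0.00622% to 0.0145% in old, and young replicate 1 held the highest sum. Of 6 smooth muscle markers 1 rose (Smtn, 0.29), and their sum was 3.78% to 4.22% in young and 3.43% to 4.11% in old. Of the 5 fibroblast markers Lum rose and Pi16 fell. Cd3g, the only tested one of 5 T cell markers, rose from 0 to 8.97 normalized counts in young to 11.0 to 38.2 in old. Of 4 cardiac markers 2 were tested and Actc1 fell, and Myl7 was at 0 in every old aorta. Of the lists for B cells, brown adipocytes, Schwann cells, skeletal muscle and red blood cells no gene was called (edgeR, 1 at an unadjusted p below 0.05).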

How the data were processed

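Poly(A) RNA of 10 aortae, cleaned of periadventitial fat, was sequenced with a stranded kit. Per the labels, the authors trimmed reads with fastp 0.20.0, dropped those under 35 bases, aligned them to GRCm38 with STAR 2.7.0f and counted them per gene with featureCounts of Subread 1.6.4. The deposited values are these raw counts, without normalization. Labels and paper differ slightly in the older age, and the labels are followed.

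Counts were filtered with filterByExpr, scaled by TMM and fitted by quasi-likelihood in edgeR with an F test (edgeR 4.0.16, robust fit, no covariate, R 4.3.3), Benjamini-Hochberg adjusted over all 14614 tested genes, and called at an adjusted p below 0.05. SE is the fold change over the square root of F. Normalized counts are counts divided by DESeq2 1.42.0 size factors. Levels per kilobase used the union of GENCODE M21 exons (GRCm38, all 45 members matched). The authors' M22 was not used here. Ratios within a library had 0.5 added to each count. Values of every mouse are given for called members, members whose groups do not overlap, all tested members of subfamilies A and B and the 5 tested members of subfamily C of highest level per kilobase, and of the partner lists called genes of the HSP70, exchange factor, HSP90, heat shock factor and ER lists and Hsf1, Hspa8, Hspa5 and Hspa9, where space allowed. Genes of other lists are named because they were called, after their values were seen. The members, lists and tests were chosen with earlier results of these data known. The count tests were tested on simulated data. Alternatives were DESeq2, limma-voom (limma 3.58.1), other scalings and filters, GC and length offsets, a stricter threshold, a replicate block and each mouse left out.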

Additional observations from a re-analysis of the deposited data

Results flagged for a closer look

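Among the 74 groups of 5 values formed by the 37 tested members in young and in old aortae, 4 held 1 aorta that stood far from the rest (Dixon's gap above 0.71 of the group's range), and chance alone gives about 1 in 20. Dnajb5 in old replicate 2 was at 2446.4 normalized counts, with the other old aortae at 3022.5 to 3132.5. Dnajc25 in the same library was at 424.98, with the others at 462.78 to 473.36. This is the library with the mitochondrial share of 11.0%, and the part of that share in both values was not tested. Dnajb5 was called without old replicate 2 as well (log2 fold change -0.36; edgeR, adjusted p = 0.0418). Dnajc14 in young replicate 5 was at 1598.4, with the other young aortae at 1433.0 to 1474.6. Dnajc30 in old replicate 3 was at 461.34, with the other old aortae at 370.21 to 388.89, and 26.2% of its exonic sequence is overlapped by Bud23 on the opposite strand.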

How the results depend on the processing

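The number of DnaJ genes called (5) was 2 without a filter on low counts, 1 at a threshold of 0.01 and between 1 (without young replicate 2 or 4) and 8 (without young replicate 1) with 1 mouse left out, and it stayed between 4 and 6 under the other tests, scalings and filters. With the replicate block it was 1, Dnajb4 (edgeR, adjusted p = 0.0444). Mice of the same number had weak correlations of their deviations over genes (-0.30 to 0.13). Young replicates 3 and 5 correlated best with the old replicate of the same number, and the other young replicates did not. The sources used here do not say whether the numbers mark a shared batch, and these correlations cannot decide it. Dnajb4 was called in all 19 alternatives, Dnajb5 in 16, Dnajb1 in 12, Dnajc10 in 8, Dnaja4 in 7 and Dnaja1 in 3, with a negative fold change in each of them. The median of subfamily C moved to -0.041 with GC and length offsets. Of all genes, 658 were called at a threshold of 0.01 (395 higher, 263 lower). The 729 lower genes became 467 with the replicate block and 474 to 1139 with 1 mouse left out. The 9 ratios kept their side of 0.05 with a pseudocount of 5 and with each mouse left out. The 3 with an exact permutation p below 0.05 kept their direction, while 4 of the others, all within 0.07 of 0, changed sign without 1 mouse (Dnajb1 to Dnajb4, for example, ranged from -0.13 to 0.16). Where calls were lost, the cause was not tested. The 8 untested members did not pass the filter on low counts, and fits at another depth were not made.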
